A study of Mus musculus with 12 samples.

Results

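The S100 genes encode small calcium-binding proteins, and 7 of them are described here in cultured CT26 cells with intact or knocked-out Mll3: S100a1, S100a6, S100a7a, S100a10, S100a11, S100a13 and S100a16. They were selected by family name from the rows of the count table, with earlier results of these libraries in view, and are 7 of 17718 rows. The table holds 13 S100 genes. No threshold was stated for the choice, but the members are also the S100 rows with the most reads. S100a13 was the lowest inside, at 11.8 CPM (read counts scaled to a common library total) in wild-type and 17.9 in knock-out libraries, and S100a4 was the highest outside, at 4.52 and 4.93 CPM. Because this contrast was known when the members were chosen, their differences between the genotypes are given as a description, with no p-value.

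CT26 is a mouse colon carcinoma line of BALB/c origin, and Mll3 (now Kmt2c) encodes a methyltransferase that places monomethyl marks on lysine 4 of histone H3 at enhancers. The compared groups were 3 RNA-seq libraries of wild-type CT26 cells without treatment and 3 of CT26 cells labelled Mll3KO for both genotype and treatment. All were grown in RPMI-1640 with fetal bovine serum, carry the same batch date and were made from polyA RNA with a strand-specific kit. The labels do not say whether the knock-out libraries came from separate guides, clones or cultures, so the spread given below is that between libraries and may be technical.

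S100 proteins carry EF-hands, helix-loop-helix motifs that hold calcium, and most act as dimers that expose a binding face for a target protein when calcium rises. S100a10 is the exception, since its EF-hands no longer bind calcium and it stays in the open form bound to annexin A2. Several family members are also released from cells and act on receptors such as RAGE and TLR4. In tumours the family is known as a set of markers of invasion, epithelial stress and inflammation, and in the mouse most of its genes lie in a cluster on chromosome 3 that also holds the epidermal differentiation complex.

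In the cluster, S100a1, S100a13, S100a16, S100a6 and S100a7a lay within 147 kb (chr3:90511034-90658130, mm10), and S100a11 and S100a10 lay 2862 kb further on, within 44.2 kb (chr3:93520496-93564645). Positions were those of RefSeq on GRCm38.p6 (C57BL/6J), the assembly behind mm10. S100a1 (90511034 to 90514330) and S100a13 (90514233 to 90524581) overlapped by 98 bases at their 5′ ends and are read in opposite directions. S100a16 spanned 90537254 to 90543151, S100a6 90612894 to 90614414 and S100a7a 90651925 to 90658130. S100a11 spanned 93520496 to 93526288 and S100a10 93555117 to 93564645.

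RefSeq promoter windows, which run from 250 bases before to 50 after a start site, were matched for S100a1, S100a6, S100a7a, S100a11, S100a13 and S100a16, 7 windows for 6 members. They are sequences of the C57BL/6J reference, not of CT26. The windows below are those of S100a7a and S100a16, which differed most between the genotypes, of S100a11, which contributed most to the difference in summed reads, and of S100a13, which shares its window in part with S100a1. Each is given 5′ to 3′ on the strand of the gene. Capitals mark matches, on either strand, to any of 4 short motifs. The AP-1 type motif was searched for as TGANTCA. The letters of the GC box, bound by factors of the Sp family, were GGGCGG. For the box near many start sites that positions the polymerase, the letters were TATAAA. The last motif was CCAAT, the site of the NF-Y factor. The windows lie at chr3:90654052-90654351 (plus strand, S100a7a), chr3:90540896-90541195 (plus strand, the second start site of S100a16), chr3:93520246-93520545 (plus strand, S100a11) and chr3:90514185-90514484 (plus strand, S100a13). The start site of the S100a7a window, 90654302, lies inside the gene span, which begins at 90651925. That of S100a13, 90514435, lies inside a span that begins at 90514233. For these genes no window at the beginning of the span was matched.
S100a7a: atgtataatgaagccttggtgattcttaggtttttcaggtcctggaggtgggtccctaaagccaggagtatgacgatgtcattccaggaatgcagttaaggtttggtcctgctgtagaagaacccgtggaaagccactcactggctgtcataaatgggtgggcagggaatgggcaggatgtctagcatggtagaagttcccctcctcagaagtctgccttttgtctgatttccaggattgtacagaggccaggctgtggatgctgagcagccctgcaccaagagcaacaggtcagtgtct
S100a16: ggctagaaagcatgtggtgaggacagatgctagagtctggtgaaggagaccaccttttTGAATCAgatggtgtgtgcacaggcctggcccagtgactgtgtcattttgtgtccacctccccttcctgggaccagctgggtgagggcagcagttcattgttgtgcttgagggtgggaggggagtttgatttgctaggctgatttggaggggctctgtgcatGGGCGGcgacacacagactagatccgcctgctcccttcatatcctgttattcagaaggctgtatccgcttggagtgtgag
S100a11: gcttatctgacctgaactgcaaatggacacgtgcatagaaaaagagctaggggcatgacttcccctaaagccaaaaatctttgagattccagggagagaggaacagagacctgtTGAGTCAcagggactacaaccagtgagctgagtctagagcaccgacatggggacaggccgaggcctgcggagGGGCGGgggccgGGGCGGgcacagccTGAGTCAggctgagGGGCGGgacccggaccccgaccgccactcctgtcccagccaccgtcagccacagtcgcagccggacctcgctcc
S100a13: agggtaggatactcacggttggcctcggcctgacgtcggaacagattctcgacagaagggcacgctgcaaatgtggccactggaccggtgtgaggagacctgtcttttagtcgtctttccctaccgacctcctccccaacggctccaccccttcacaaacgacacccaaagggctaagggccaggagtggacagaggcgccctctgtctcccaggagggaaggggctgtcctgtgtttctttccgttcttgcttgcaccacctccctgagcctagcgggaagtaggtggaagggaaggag

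The S100a11 window held 2 AP-1 type matches and 3 GC boxes, and the second S100a16 window held 1 of each. Both AP-1 type matches of S100a11 read TGAGTCA, while that of S100a16 reads TGAATCA. The usual AP-1 site has G or C at the centre, so the S100a16 match falls outside it and the letters searched were broader. The S100a7a window, the first S100a16 window, and those of S100a13 and S100a1 held no match to any of the 4 motifs. The S100a6 window held 1 CCAAT box and no other match. Of 32851 windows of 300 bases in the whole RefSeq table, 7.81% held the AP-1 type motif, 35.7% the GC box, 13.6% the TATA box and 37.4% the CCAAT box. Against these, the 7 member windows held them in 2, 2, 0 and 1 cases. The start sites of the S100a1 and S100a13 windows lay 105 bases apart on opposite strands, and the windows shared 204 bases. The S100a13 site used there, 90514435, lies inside its gene span and beyond the end of S100a1 at 90514330. The 98 bases of overlap between the gene spans thus come from the part of S100a13 before that site. The GC content was 61.7% for S100a11, 61.0% for S100a1 and 59.3% for S100a13, against 50.7% for S100a7a and 49.3% for S100a6, with a median of 52.7% over all windows. These matches are letters in a window and do not show binding.

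The libraries held 9559658 to 13406013 counts, so 1 count was 0.0786 to 0.108 CPM after TMM scaling, which sets libraries to a common level. Kmt2c, the targeted gene, gave 24.9, 26.2 and 25.0 CPM without the knock-out and 15.96, 11.2 and 14.8 CPM with it. The defining epithelial markers Epcam, Cdh1, Krt19, Cldn7 and Cdx2 were not among the rows of the table, while Krt18 and Krt20 were. The 4 of 9 listed epithelial markers present summed to 53.0 to 55.5 CPM in wild-type and 161 to 174 CPM in knock-out libraries, and the 7 fibroblast and mesenchymal markers to 2523 to 2537 and 4388 to 4510 CPM. The 4 of 9 immune markers in the table summed to 14.4 to 17.3 and 13.9 to 18.4 CPM, where the lysozyme gene Lyz2 was higher in the knock-out (0.553 ± 0.307 and 8.80 ± 0.535 CPM) and the receptor gene Csf1r lower (15.2 ± 1.02 and 6.72 ± 1.55 CPM), without the neutrophil genes S100a8 and S100a9 and without Cd3e, Adgre1 and Itgam. The 2 of 6 keratinocyte markers summed to 1.96 to 5.39 and 2.77 to 3.52 CPM, with Ivl, Lor, Krt14 and Krt1 not among the rows. The 2 of 3 endothelial markers summed to 0.306 to 1.62 and 1.96 to 2.85 CPM. The part of these marker levels in the S100 values was not tested.

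All 7 members had a higher mean in the knock-out, and 6 had groups that did not overlap. S100a7a was 2.62-fold and S100a16 2.11-fold higher, S100a13 1.52-fold, and the other 4 between 1.096-fold and 1.26-fold. Of the 7, 6 were past the threshold of edgeR's test in the higher direction (adjusted p under 0.05 over all genes tested) and S100a1 was not. Over all 13013 genes tested, 66.2% passed it in either direction and 33.1% in the higher one, or 31.9% in the higher one among genes with an average log2 CPM of at least 3, the level of all members. The knock-out libraries all lay above the wild-type ones for 34.4% of genes. Since the members were chosen with this contrast known, nothing is read from their count. The median log2 fold change of the members was 0.33, against 0.02 over all genes tested.

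**Figure D1:**
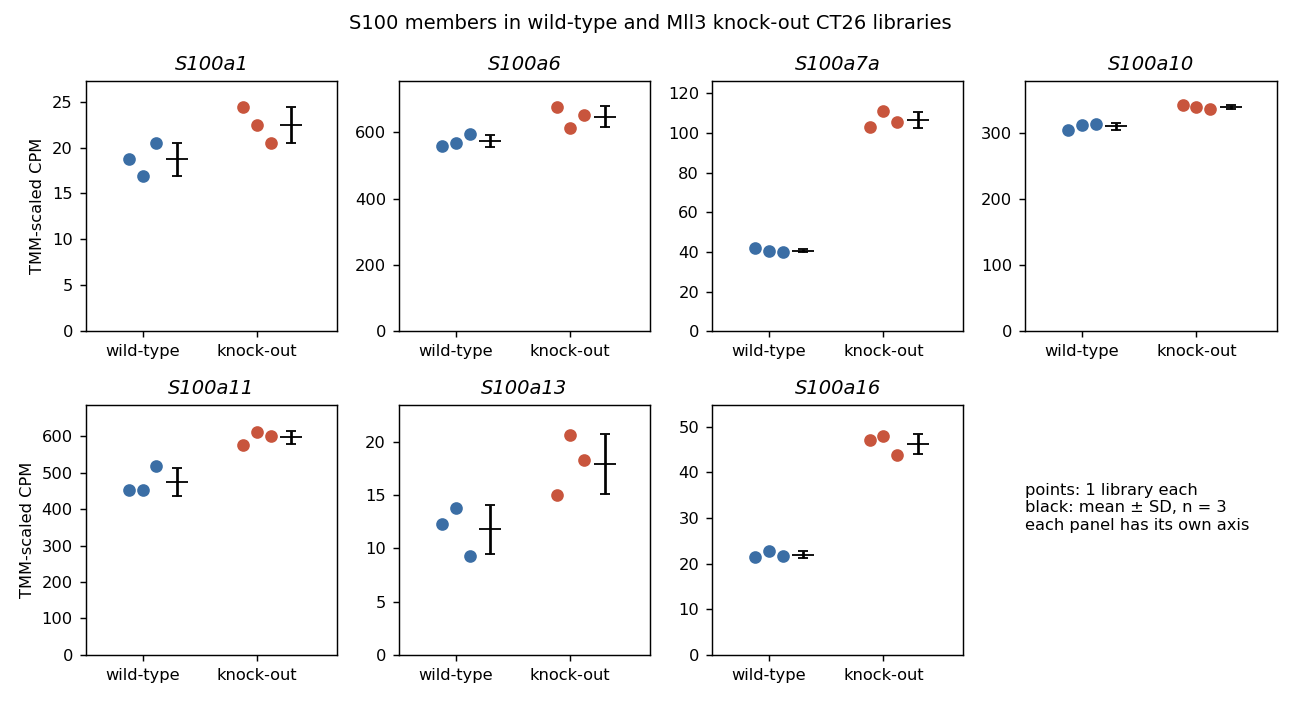
TMM-scaled CPM (vertical axes, each from 0) of the 7 S100 members in the wild-type and knock-out CT26 libraries; each point is 1 library and the black marks are mean ± SD (n = 3 per group). The groups are apart in every panel except that of S100a1, and S100a7a and S100a16 show the widest gaps.

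S100a7a is a secreted S100 protein of the psoriasin group, known from inflamed and differentiating skin, where it attracts leukocytes. Its level was 41.7, 40.4 and 40.0 CPM in the wild-type libraries and 103, 111 and 106 CPM in the knock-out libraries. All 3 knock-out libraries were high, and the gap between the groups was much wider than the spread within either. The means were 40.7 ± 0.904 and 107 ± 4.19 CPM (SD, n = 3), a log2 fold change of 1.39 (SE 0.0668). This was the largest difference in the family, in a line where involucrin and loricrin, the usual companions of this gene in skin, were not among the rows.

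S100a16 is a widely expressed member with a single working EF-hand per chain. It gave 21.4, 22.7 and 21.8 CPM in wild-type libraries, against 47.2, 47.9 and 43.8 CPM in the knock-out. The groups were far apart, with means of 21.96 ± 0.703 and 46.3 ± 2.18 CPM. The log2 fold change was 1.08 (SE 0.0941).

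S100a13 takes part in the release from cells of FGF1 and interleukin 1 alpha, proteins that lack a signal peptide. Its values were 12.3, 13.8 and 9.27 CPM in wild-type and 14.98, 20.6 and 18.3 CPM in knock-out libraries. Wild-type library 3 was the lowest of all 6, and the lowest knock-out library lay only just above the highest wild-type one. The means were 11.8 ± 2.29 and 17.9 ± 2.82 CPM, with a log2 fold change of 0.61 (SE 0.150), which was 0.46 without wild-type library 3.

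S100a1, which regulates calcium handling in muscle and shares its 5′ end with S100a13, had overlapping groups. Its values were 18.8, 16.9 and 20.5 CPM in wild-type and 24.4, 22.5 and 20.5 CPM in knock-out libraries, so the lowest knock-out library was level with the highest wild-type one. The log2 fold change was 0.26 (SE 0.121), and it missed the threshold. It passed without wild-type library 3 (0.31) and without the knock-out library sg3 (0.31), but not without any other library (0.19 to 0.26). It also passed with upper-quartile scaling, library size alone, a minimum count of 50 and limma voom, and missed with RLE scaling, no filter and DESeq2. Since the members were chosen with this contrast known, nothing is read from these passes. Reads from the 98 bases that both genes cover cannot be given to S100a1 or S100a13 unless strand was used in counting, which is not given in the sources used here.

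The remaining 3 members had the most reads, with 2905 to 7111 counts in each library against 86 to 1285 for the other 4, and small, closely measured differences. Gene lengths were not used, so levels are not ranked between genes. S100a11, a partner of annexin A1 that takes part in membrane repair and keratinocyte growth control, stood at 452, 454 and 518 CPM in wild-type and 576, 613 and 601 CPM in knock-out libraries. Wild-type library 3 was the highest of its group and stood apart from the other wild-type libraries, but below all 3 knock-out libraries. The means were 474 ± 38.0 and 597 ± 18.6 CPM and the log2 fold change was 0.33 (SE 0.0408). The genome holds an annotated S100a11 pseudogene, whose reads the counting could have shared.

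S100a6, or calcyclin, which rises in cells entering the cycle and binds the ubiquitin ligase adaptor CacyBP, stood at 559, 568 and 595 CPM in wild-type libraries. Its knock-out values were 676, 612 and 653 CPM, all higher, with means of 574 ± 18.8 and 647 ± 32.6 CPM. The log2 fold change was 0.17 (SE 0.0368). S100a10, the p11 subunit that joins annexin A2 in a heterotetramer at the plasma membrane, had 304, 313 and 313 CPM in wild-type and 342, 339.6 and 337 CPM in knock-out libraries. Its log2 fold change of 0.13 (SE 0.0387) was the smallest of the family, yet the groups were apart, at 309.9 ± 5.26 and 339.5 ± 2.85 CPM.

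**Figure D2:**
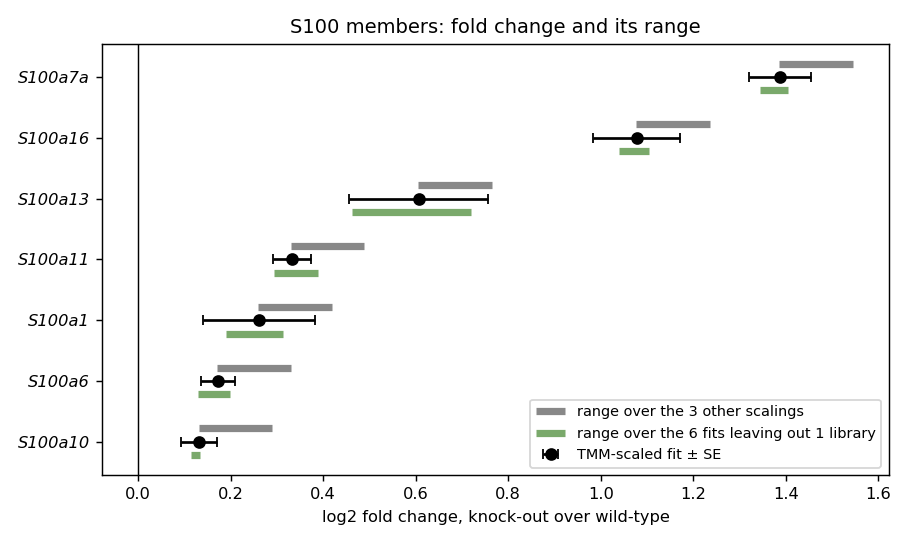
Log2 fold change of each member, knock-out over wild-type (horizontal axis), as the TMM-scaled fit ± SE (black), the range over the other 3 scalings (grey) and the range over the 6 fits that leave out 1 library (green). All ranges lie above 0, and those of S100a7a (1.34 to 1.54) and S100a16 (1.04 to 1.24) lie above those of the other 5 members.

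The scaling shifted all members alike. Upper-quartile scaling moved the median log2 fold change of all genes from 0.02 to 0.17 and library size alone moved it to 0.14, and the values of S100a6 and S100a10 were then up to 0.33 and 0.29. The differences of 0.13 to 0.33 in S100a6, S100a10 and S100a11 are therefore relative to the TMM scale. Summed over the 7 members, the TMM-scaled level was 1408, 1428 and 1518 CPM in wild-type and 1784, 1766 and 1779 CPM in knock-out libraries. Of the difference of 325 CPM, S100a11 made up 37.6%, S100a6 22.4%, S100a7a 20.3%, S100a10 9.11%, S100a16 7.49%, and S100a13 and S100a1 together the rest. So the members with the largest folds did not hold most of the added reads.

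Ratios of counts within a library do not depend on the scaling. S100a7a had 13.7, 12.9 and 12.8 counts per 100 counts of S100a10 in wild-type libraries and 30.1, 32.7 and 31.4 in knock-out libraries. Per 100 counts of S100a16, S100a7a had 195, 178 and 184 in wild-type and 218, 232 and 241 in knock-out libraries. S100a7a thus gained on every other member, S100a16 included. S100a6 per 100 S100a10 was 184, 182 and 190 in wild-type and 198, 180 and 194 in knock-out libraries, and these overlapped. S100a10 per 100 S100a11 was 67.3, 68.9 and 60.4 in wild-type and 59.4, 55.4 and 56.0 in knock-out libraries, which did not overlap. Of the 21 pairs of members, 11 had ratios that did not overlap between the groups. Each of those but the last named involved S100a7a or S100a16, the members with the largest folds. The share over pairs of other genes was not computed, so nothing is read from this count. For single genes, every knock-out library lay above every wild-type one in 34.4% of those tested. That share covers 1 direction, whereas the 11 pairs count both, 4 above and 7 below, so it is no background for them. Of the 7 members' counts, S100a7a held 2.81% ± 0.165 in wild-type and 6.0% ± 0.268 in knock-out libraries, and S100a10 21.4% ± 0.657 and 19.1% ± 0.165 (SD, n = 3).

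The other 3 S100 genes with a test lie between the proximal members. S100a14, an epithelial S100 protein, had 3.06, 1.63 and 1.94 CPM in wild-type and 3.72, 3.20 and 3.65 CPM in knock-out libraries, with a log2 fold change of 0.64 (SE 0.322, edgeR adjusted p = 0.0762). S100a3 had 0.965 ± 0.452 and 1.85 ± 0.299 CPM and a log2 fold change of 0.88 (SE 0.441, edgeR adjusted p = 0.0736). For both, the knock-out libraries lay above the wild-type ones. The threshold was passed without wild-type library 1 (0.97 and 1.31), under upper-quartile scaling (0.80 and 1.04) and under library-size scaling (0.76 and 1.00). Neither gene passed in the fits that left out another library, and the values fell to 0.46 and 0.59 without wild-type library 2. Both also missed the threshold with RLE scaling, no filter, DESeq2 and limma voom. S100a4, a motility-associated member, had 4.52 ± 0.976 and 4.93 ± 2.09 CPM with overlapping groups (log2 fold change 0.12, SE 0.266, edgeR adjusted p = 0.713). Its sign rested on single libraries, since the value was -0.29 without the knock-out library sg1 and -0.04 without wild-type library 2.

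Over the span of the members and 1 Mb on either side, 34 other genes were tested, with 11 called higher and 12 called lower (edgeR adjusted p under 0.05), with a median log2 fold change of 0.04. Of these, 26 lie before S100a1 (median 0.04) and 3, S100a14, S100a3 and S100a4, between the proximal members. Only 4 lie beyond S100a10 (median -0.16), so the pooled median says little about the surroundings of S100a10 and S100a11. The share called, 67.6%, was close to the 66.2% of all genes. With upper-quartile scaling the split of the neighbours was 15 higher and 8 lower. Of the 595 other genes tested on all of chromosome 3, 74.1% were called with TMM scaling, 171 higher and 270 lower, with a median of -0.16. Under upper-quartile scaling that split was 209 higher and 224 lower with a median of -0.0044, and under library-size scaling 199 and 236 with a median of -0.04. With the TMM median of the chromosome subtracted, the members' log2 fold changes ran from 0.29 for S100a10 to 1.55 for S100a7a, and with the median of the 34 neighbours subtracted from 0.088 to 1.34.

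Chtop, an mRNA export factor gene, was lower, at 194 ± 12.7 against 299 ± 12.1 CPM (-0.62, SE 0.0446, edgeR adjusted p = 1.78e-18). Chtop spans 90498539 to 90509527, and the S100a1 span begins at 90511034, the 3′ end of that gene. The lower coordinates of the 2 spans lie 12.5 kb apart. Snapin, a gene of vesicle docking on the same side of S100a1, rose from 47.1 ± 4.77 to 76.6 ± 2.93 CPM (0.70, SE 0.0733, edgeR adjusted p = 2.57e-12). Ilf2, an RNA-binding protein gene named here after its values were seen, rose by 0.56 (SE 0.0551). So genes next to the proximal end went both ways. Further out on that side, the RNA editing enzyme gene Adar fell by 0.67 (SE 0.0538) and the acetylcholine receptor subunit gene Chrnb2 by 0.71 (SE 0.0802). Beyond S100a10 the nearest tested gene with a RefSeq position was Them4, a thioesterase gene whose lower coordinate lies 755 kb from that of S100a10. Them4 was lower, at 12.9 ± 1.85 against 40.7 ± 1.60 CPM (-1.65, SE 0.113, edgeR adjusted p = 2.64e-19). Between S100a7a and S100a11, a stretch of 2862 kb, 1 gene with a RefSeq position was tested. Of 31 listed epidermal differentiation complex genes, 3 were in the table, the cornified envelope genes Crct1 and Kprp and the peptidoglycan recognition gene Pglyrp4. All 3 had means of at most 0.319 CPM in either group and none reached the filter for testing.

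**Figure D3:**
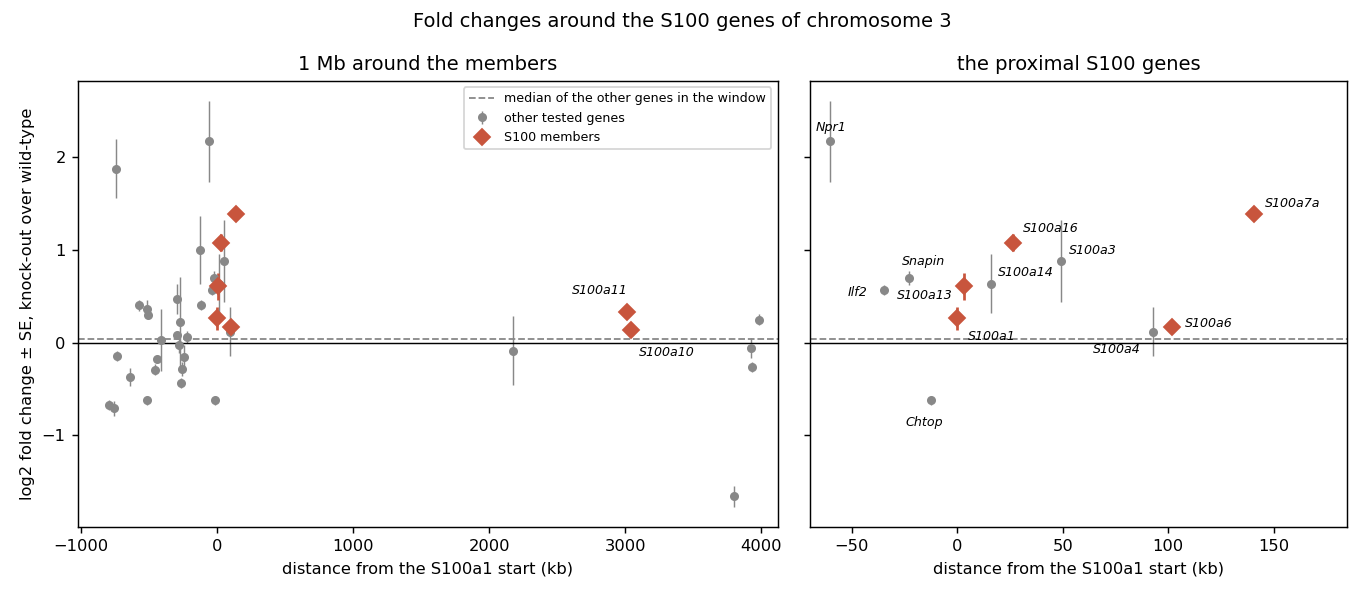
Log2 fold change ± SE, knock-out over wild-type (vertical axes), of the members (red diamonds) and the other tested genes (grey points) against distance from S100a1, over the whole window (left) and around the proximal members (right). Distances are between the lower coordinates of the gene spans, called the start on the axis, which for S100a1 is its 3′ end. Chtop lies below 0 beside S100a1, Snapin and Ilf2 lie above it, and the dashed line is the neighbours' median of 0.04.

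Binding partners of S100 proteins differed in both directions. Of 41 listed partner, receptor and client genes, 33 were in the table and 26 were tested, with 13 called higher and 9 called lower (edgeR adjusted p under 0.05), with a median log2 fold change of 0.15 against 0.02 for all genes. Under either of the upper-quartile and library-size scalings the split was 16 higher and 6 lower. As a share, 22 of 26 passed (84.6%), where 66.2% of all genes did. With a minimum count of 50, 23 of 26 partners and 71.9% of all genes passed. The list was chosen with earlier results of these data known, so nothing is read from this share. Over all genes the share called higher moved from 33.1% to 42.9% with upper-quartile scaling and to 40.5% with library size alone.

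Among the partners of S100a10 and S100a11, Anxa1 (annexin A1, bound by S100a11) was 488, 478 and 449 CPM in wild-type and 679, 688 and 692 CPM in knock-out libraries. It rose by 0.54 (SE 0.0360, edgeR adjusted p = 9.2e-20). Anxa2 (annexin A2, bound by S100a10) was 1624, 1626 and 1503 CPM in wild-type and 1456, 1446 and 1462 CPM in knock-out libraries, a log2 fold change of -0.12 (SE 0.0320, edgeR adjusted p = 0.000665). The call for Anxa2 was lost when libraries were scaled by size alone (-0.0016), and upper-quartile scaling turned its sign (0.034). Ahnak, the scaffold protein that annexin A2 and S100a10 recruit to the membrane, fell from 987 ± 38.5 to 693 ± 10.8 CPM (-0.51, SE 0.0340). Thus S100a10 was slightly higher while Anxa2 was not, and Ahnak was lower. Hltf, a chromatin remodeller that binds the same pair and lies on chromosome 3, rose by 0.89 (SE 0.0821), and the protease gene Ctsb, whose product cathepsin B binds S100a10, by 0.38 (SE 0.0335). Plat, tissue plasminogen activator, had 0.22 (SE 0.125, edgeR adjusted p = 0.125) and passed under the upper-quartile (0.37) and library-size (0.34) scalings.

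**Figure D4:**
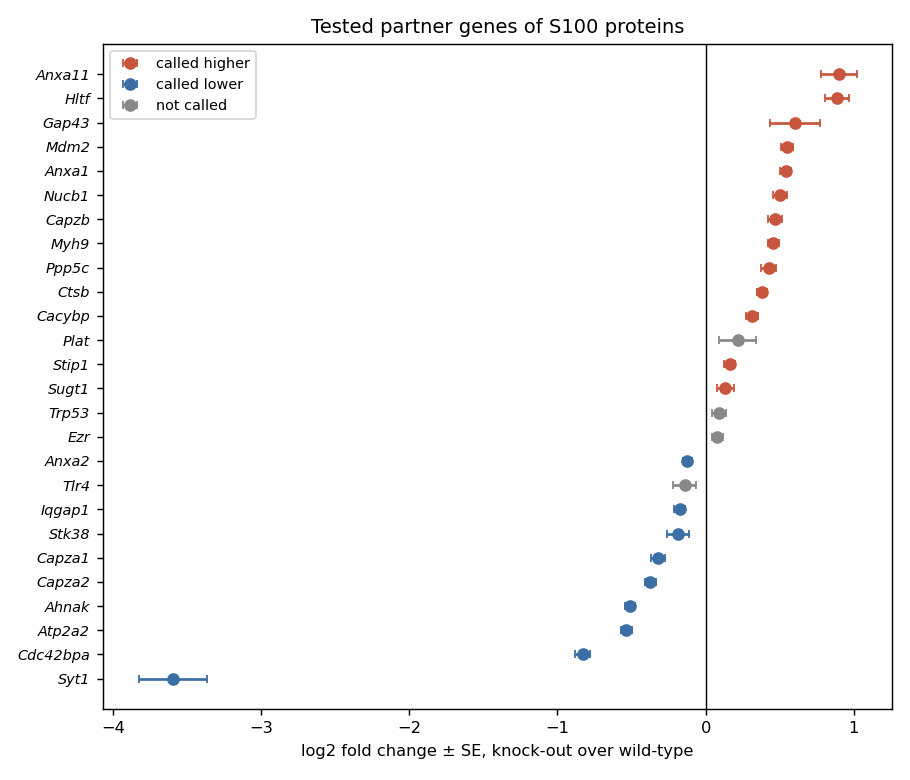
Log2 fold change ± SE, knock-out over wild-type (horizontal axis), of the 26 tested partner genes, in red where called higher, in blue where called lower and in grey where not called at an edgeR adjusted p of 0.05. Syt1 lies far below the rest at -3.60, and Anxa11 and Hltf are the highest at 0.90 and 0.89.

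Cacybp, which encodes the adaptor named above, was 291, 291 and 293 CPM in wild-type and 368, 370 and 348 CPM in knock-out libraries (log2 fold change 0.31, SE 0.0392, edgeR adjusted p = 5.5e-10). Anxa11, an annexin that S100a6 binds, rose from 14.4 ± 0.326 to 26.99 ± 0.387 CPM (0.90, SE 0.119). The HSP90 co-chaperone genes Stip1, Ppp5c and Sugt1 had log2 fold changes of 0.16 (SE 0.0389), 0.43 (SE 0.0515) and 0.13 (SE 0.0563). The call for Sugt1 (edgeR adjusted p = 0.0342) was lost without wild-type library 1 or 3 (adjusted p = 0.126 and 0.144), without any of the 3 knock-out libraries (0.064 to 0.162), with no filter (0.0826) and with DESeq2 (0.0723).

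Syt1, a synaptotagmin of the complex in which S100a13 and FGF1 leave the cell, was 15.4, 14.6 and 17.9 CPM in wild-type and 1.57, 1.04 and 1.35 CPM in knock-out libraries. It fell by 3.60 on the log2 scale (SE 0.231, edgeR adjusted p = 2.24e-20), the largest difference in the partner list and opposite in sign to that of S100a13. Fgf1 was not among the rows, and Il1a had 0.139 ± 0.160 and 0.0897 ± 0.0867 CPM.

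The calcium pump gene Atp2a2 (SERCA2), a target of S100a1, was lower, at 398 ± 4.61 against 577 ± 0.317 CPM (-0.54, SE 0.0358). The ryanodine receptor genes Ryr1 and Ryr3, other targets of S100a1 in muscle, were at 0.284 and 0.0942 CPM in wild-type and 0.761 and 0.0967 CPM in knock-out libraries and had no test. Of the capping protein genes, whose products bind S100 dimers, Capzb rose by 0.47 (SE 0.0484) while Capza1 and Capza2 fell by 0.32 (SE 0.0448) and 0.37 (SE 0.0389). The receptor gene Tlr4 had 53.0 ± 3.31 and 48.1 ± 2.96 CPM (-0.14, SE 0.0782, edgeR adjusted p = 0.111) and passed without wild-type library 3 (-0.20) and without the knock-out library sg2 (-0.20), while it was 0.018 with upper-quartile scaling. Ager, which encodes RAGE, stood at 1.11 ± 0.534 and 1.17 ± 0.693 CPM and had no test.

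Among clients shared by several S100 proteins, the heavy chain gene of non-muscle myosin, Myh9, rose by 0.46 (SE 0.0364) and Mdm2, the p53 ligase gene, by 0.55 (SE 0.0390). Nucb1 and Gap43 rose by 0.50 (SE 0.0464) and 0.60 (SE 0.168), and the kinase gene Cdc42bpa fell by 0.83 (SE 0.0488). Iqgap1, a scaffold of the cell cortex, had a log2 fold change of -0.17 (SE 0.0375) and Stk38, a kinase of the NDR group, -0.19 (SE 0.0742, edgeR adjusted p = 0.0252). The calls for both were lost under the upper-quartile (-0.02 and -0.03) and library-size (-0.05 and -0.06) scalings. That of Stk38 was also lost with a minimum count of 50 (-0.15), with DESeq2 (-0.19), without wild-type library 3 (-0.13) and without the knock-out library sg3 (-0.18). Trp53 (0.09, SE 0.0482) and Ezr (0.08, SE 0.0387) did not pass, and both passed with upper-quartile scaling, library size alone and a minimum count of 50, as did Trp53 without the knock-out library sg1.

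Of 66 other genes listed for EF-hands, 48 were tested, with 21 higher and 10 lower (edgeR adjusted p under 0.05) and a median log2 fold change of 0.05. The share called, 64.6%, was close to the 66.2% of all genes. With upper-quartile scaling, which raised the share of all genes called higher to 42.9%, the split was 31 and 6. The smallest p among the higher ones were those of Ehd2, a caveolar ATPase gene (1.09, SE 0.0541), the calmodulin gene Calm3 (0.66, SE 0.0448), Sparc, a matricellular protein gene (0.62, SE 0.0434), and the calpain gene Capn5 (1.41, SE 0.110). Capn5 is counted in this list although its product lacks the EF-hand domain of the calpains encoded by Capn1 and Capn2. Among the lower ones they were those of Calu, calumenin of the secretory pathway (-1.04, SE 0.0343), Micu3 of the mitochondrial calcium uniporter (-1.69, SE 0.120), Mcfd2 (-0.61, SE 0.0478) and Itsn2 (-0.59, SE 0.0634). Calm2, named after its values were seen, had -0.03 (SE 0.0368) and did not pass, but had 0.13 under upper-quartile and 0.094 under library-size scaling, and passed there. The log2 fold changes of S100a7a and S100a16 lay within the range of this list, which ran from -1.69 to 1.65. That of S100a7a (1.39) was exceeded only by those of Capn5 and of Necab3, the top value. Necab3 had 2 to 30 counts per library, with 0.650 ± 0.448 CPM in wild-type and 2.18 ± 0.807 CPM in knock-out libraries (SE 0.478).

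For S100a6, the member with the highest CPM, the genes with the most similar profile over the 6 libraries were Nr2f2, Capn7 and Fut8. Their centred log2 CPM differed from that of S100a6 by a root mean square of 0.0192, 0.0221 and 0.0287. They lie on chromosomes 7, 14 and 12, and their levels were 90.1 ± 2.08, 59.5 ± 2.42 and 70.8 ± 2.89 CPM in wild-type and 101 ± 5.56, 68.8 ± 2.77 and 78.7 ± 2.44 CPM in knock-out libraries.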

How the data were processed

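The authors deposited raw read counts, whole numbers for each of 17718 Ensembl genes in 6 RNA-seq libraries of CT26 cells, and every gene is above 0 in at least 3 of them. Per the submitters' processing notes, the tools included fastp, STAR and HTSeq, with build mm10. Their roles and versions, the annotation release and the strand setting were not given in the sources used here. CUT&Tag and single-cell samples were not analysed here. Columns were matched to groups by name, and those of the knock-out (sg1 to sg3) to no numbered replicate.

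Symbols were matched for 17650 genes. The filter filterByExpr of edgeR (count 10, total 15) retained 13013 genes, and TMM scaling was applied. Of these, 11923 had a RefSeq position, and the neighbours and the genes of chromosome 3 were drawn from those alone. Groups were compared by the quasi-likelihood F test (edgeR 4.0.16 in R 4.3.3), with Benjamini-Hochberg adjustment over every gene tested and a threshold of 0.05. Positive values mean higher in the knock-out. A change given without a unit is a log2 fold change, and its SE was derived from the F statistic. The pipeline was checked on simulated data.

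The members and lists were chosen with earlier results of these data known. Genes named are the 7 members, Kmt2c, partners that passed with an average log2 CPM of at least 3 plus 4 fixed partners, the 4 EF-hand genes of smallest p in each direction, the nearest tested neighbours, the 4 neighbours at that average level that changed most, and the 3 genes closest to S100a6 in profile. Other genes named were chosen after their values were seen. Predicted genes, with Gm or Rik names, were passed over. Alternatives were RLE, upper-quartile and library-size scaling, no filter or a minimum count of 50, DESeq2 1.42.0, limma voom (limma 3.58.1), a glmTreat test at 1.5-fold, a threshold of 0.01, subtraction of chromosome 3 medians, and leaving out each library.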

Additional observations from a re-analysis of the deposited data

How the results depend on the processing

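The members' log2 fold changes were above 0 under all 15 alternatives run for each. The number past the threshold was 6 or 7 of 7 under every alternative except the test against a 1.5-fold change, which called 2 members, 4 partner genes, 7 EF-hand genes, 3 neighbours and 160 genes of chromosome 3, where it called 20% of all genes. Upper-quartile scaling called 67.4% of all genes, and 42.9% in the higher direction. Of 75 counts over the lists with a tested gene, the other 70 were within 1.5 times those reported. Anxa2 (0.034 with upper-quartile scaling) and Calm2 (0.13 and 0.094 under upper-quartile and library-size scaling) changed sign. Values not past the threshold, or with no test, that also changed sign were those of Tlr4 (0.018 with upper-quartile scaling), Calm2 (0.0035 with a minimum count of 50), S100a4 (-0.29 without sg1 and -0.04 without wild-type library 2) and the median of the neighbours (-0.11 with a minimum count of 50, -0.024 without sg1 and -0.015 without sg3). No paired analysis was possible because the knock-out columns carry no replicate number that the labels tie to a sample. S100a1, with 166 to 260 counts per library, was called in some fits only, and its log2 fold change ran from 0.19 to 0.31 with 1 library left out. Depth limits S100a3 and S100a14, which had 5 to 39 counts per library.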

Other observations

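Among the S100 rows of the table with too few reads for a test, S100a2, a gene of basal epithelium in the proximal cluster, had 0 counts in all 3 wild-type libraries and 2, 7 and 3 in the knock-out libraries. A total of 0 allows up to 3 counts over the 3 wild-type libraries at 95% confidence, or 0.0943 CPM, for counting error only. The 12 counts of the knock-out group (0.373 CPM) were 3.95 times that limit, with no test. This ratio takes the 12 counts as exact, so it is not a lower limit on the fold. Genes with reads in fewer than 3 libraries have no row here. Without wild-type reads, S100a2 could be listed only if all 3 knock-out libraries had some. The direction of its contrast was thus fixed by the listing, and nothing is read from it. S100a5, the neighbour of S100a6, had 0, 1 and 0 counts in wild-type and 4, 0 and 2 in knock-out libraries. S100b, which lies outside the cluster on chromosome 10, had 3, 0 and 2 against 1, 2 and 0 counts.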
